A study of Mus musculus with 60 samples.

Results

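The 10 genes described here encode heparan sulfate O-sulfotransferases and were measured in 8 mouse tissues: Hs2st1, Hs6st1, Hs6st2, Hs6st3, Hs3st1, Hs3st2, Hs3st3a1, Hs3st3b1, Hs3st5 and Hs3st6. They were chosen as the genes of this family to which the RefSeq identifier of a probe set maps on a custom array of glycan-related genes. The 10 genes have 1 probe set each, so 10 of 1246 probe sets, and 10 of the 909 genes that could be named, are described. The family's remaining gene, Hs3st4, was matched by no probe set.

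Heparan sulfate is a chain of alternating uronic acid and glucosamine that is attached to core proteins of the cell surface and the matrix. In the Golgi it is built by Ext polymerases, partly deacetylated and N-sulfated by the Ndst enzymes and epimerised by Glce, and then sulfated at further positions. Hs2st1 acts on the uronic acid, the Hs6st enzymes on carbon 6 of glucosamine, and the Hs3st enzymes, late in the pathway, on carbon 3. The pattern of these sulfates sets which growth factors, morphogens and protease inhibitors a chain binds. In brain it is known for its part in axon guidance and in the binding of fibroblast growth factors.

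Total RNA was hybridised on 60 arrays from 18 mice in 18 groups of line, genotype and tissue. St6galnac2 knockout mice (KO, -/-; 1 female and 2 males) and wild-type mice of that line (WT, +/+; 1 female and 2 males) gave brain, intestine, lymph node and thyroid. Mice lacking both B4galnt1 and B4galnt2 (DKO; 2 females and 3 males) and WT mice of that line (1 female and 3 males) gave thymus, testes, mammary gland and kidney, not every mouse giving every tissue. Brain and small intestine of 3 C57 mice, of no labelled sex, served as further controls. The labels give neither age, nor the background strain of the 2 lines, nor the targeting construct, and they call all mice healthy. Each tissue came from 1 line only, so a difference between tissues of different lines cannot be told apart from a difference between lines. The study looked at expression to choose tissues for glycan analysis, and the questions here are in which tissues each sulfotransferase transcript was high or low, and how its level differed between KO or DKO mice and WT mice. In bulk tissue, fewer cells of a type and less RNA per cell cannot be told apart.

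Arrays were correlated with tissue means over 1 probe set for each of 909 genes, as deviations from the mean over tissues. The means left out 4 arrays marked in earlier work on these data, and the tested animal's own arrays of that tissue. On this measure 56 of the 60 arrays were closest to their labelled tissue. Their median correlation was 0.95, and the WT lymph node of animal 9094 had the lowest, 0.516. The other 4, those marked beforehand, were not. For WT animal 9099 the first array labelled brain gave -0.266 for brain but 0.966 for intestine, and the array labelled intestine gave -0.265 for intestine but 0.951 for brain. For thymus, WT arrays of N3740 and N3738 gave only -0.138 and -0.119. The thymus mean rests on the kept arrays, whose label the markers below do not bear out. The correlation therefore cannot show which thymus arrays go against the label. These 4 arrays were left out of the values below, which leaves 2 animals in WT intestine and 1 in WT thymus, and values with all arrays as labelled are given where they differ. The targeted transcripts were read in every tissue. St6galnac2 spanned 5.49 to 5.71 on KO brain arrays and 5.67 to 5.71 on WT ones, B4galnt1 5.3 to 6.04 in DKO kidney and 5.47 to 5.93 in WT kidney, and B4galnt2 3.64 to 4.15 in DKO kidney and 3.58 to 4.05 in WT kidney. The genotypes overlapped or met in every tissue for all 3, except for B4galnt1 in thymus, at 4.73 to 5.23 on 5 DKO arrays and 5.45 on 1 WT array. Where the probe sets lie relative to the deleted parts is not given in the sources used here, so these values check nothing about the genotypes, and each group is named by its label.

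Defining markers were read as the mean level of the listed genes that were measured. The 7 brain genes averaged 9.06 to 9.36 on brain arrays and at most 6.26 elsewhere, and the 4 genes of intestinal epithelium 11.96 to 12.44 in intestine and at most 6.98 elsewhere. The 4 B cell and lymph node genes averaged 7.78 to 10.63 in lymph node and at most 6.89 elsewhere, the lowest lymph node being that of 9094. The 2 kidney genes (8.22 to 10.14) and the 1 testes gene (11.39 to 12.14) were likewise above all other tissues. Thymus differed: the 2 measured thymus genes, Ccr9 and Ccl25, averaged 4.02 to 4.54 on the arrays labelled thymus and 7.41 to 8.9 in intestine, while the 5 connective tissue genes reached 9.54 to 10.2, so the thymus label is not borne out by these markers. In thyroid the 1 measured marker, Chga of C cells, was 12.83, 7.79 and 5.77 in KO mice and 13.02, 13.06 and 12.73 in WT mice. It was 10.21 to 10.67 in brain, 7.34 to 9.33 in intestine and 7.01 to 7.36 in testes. Chga thus does not bear out the thyroid label of KO animals 9100 (7.79) and 9361 (5.77). Both arrays were closest to thyroid in the correlation above, at 0.843 and 0.809. The 2 salivary gland genes averaged 10.25 on the WT lymph node array of 9362 and 11.36 and 11.54 on the 2 WT thymus arrays left out, against 3.37 to 3.51 on the thymus arrays kept. No marker of fat or mammary gland was measured.

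Values are log2 expression as deposited, on which 1 unit is a 2-fold difference. The lower quartile of all values was 4.21 and the median 5.48. A level below 4.21 is called low here. Levels are compared between tissues of 1 probe set, never between probe sets. The plot of every array by tissue shows how widely the 10 genes differ in their spread.

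**Figure D1:**
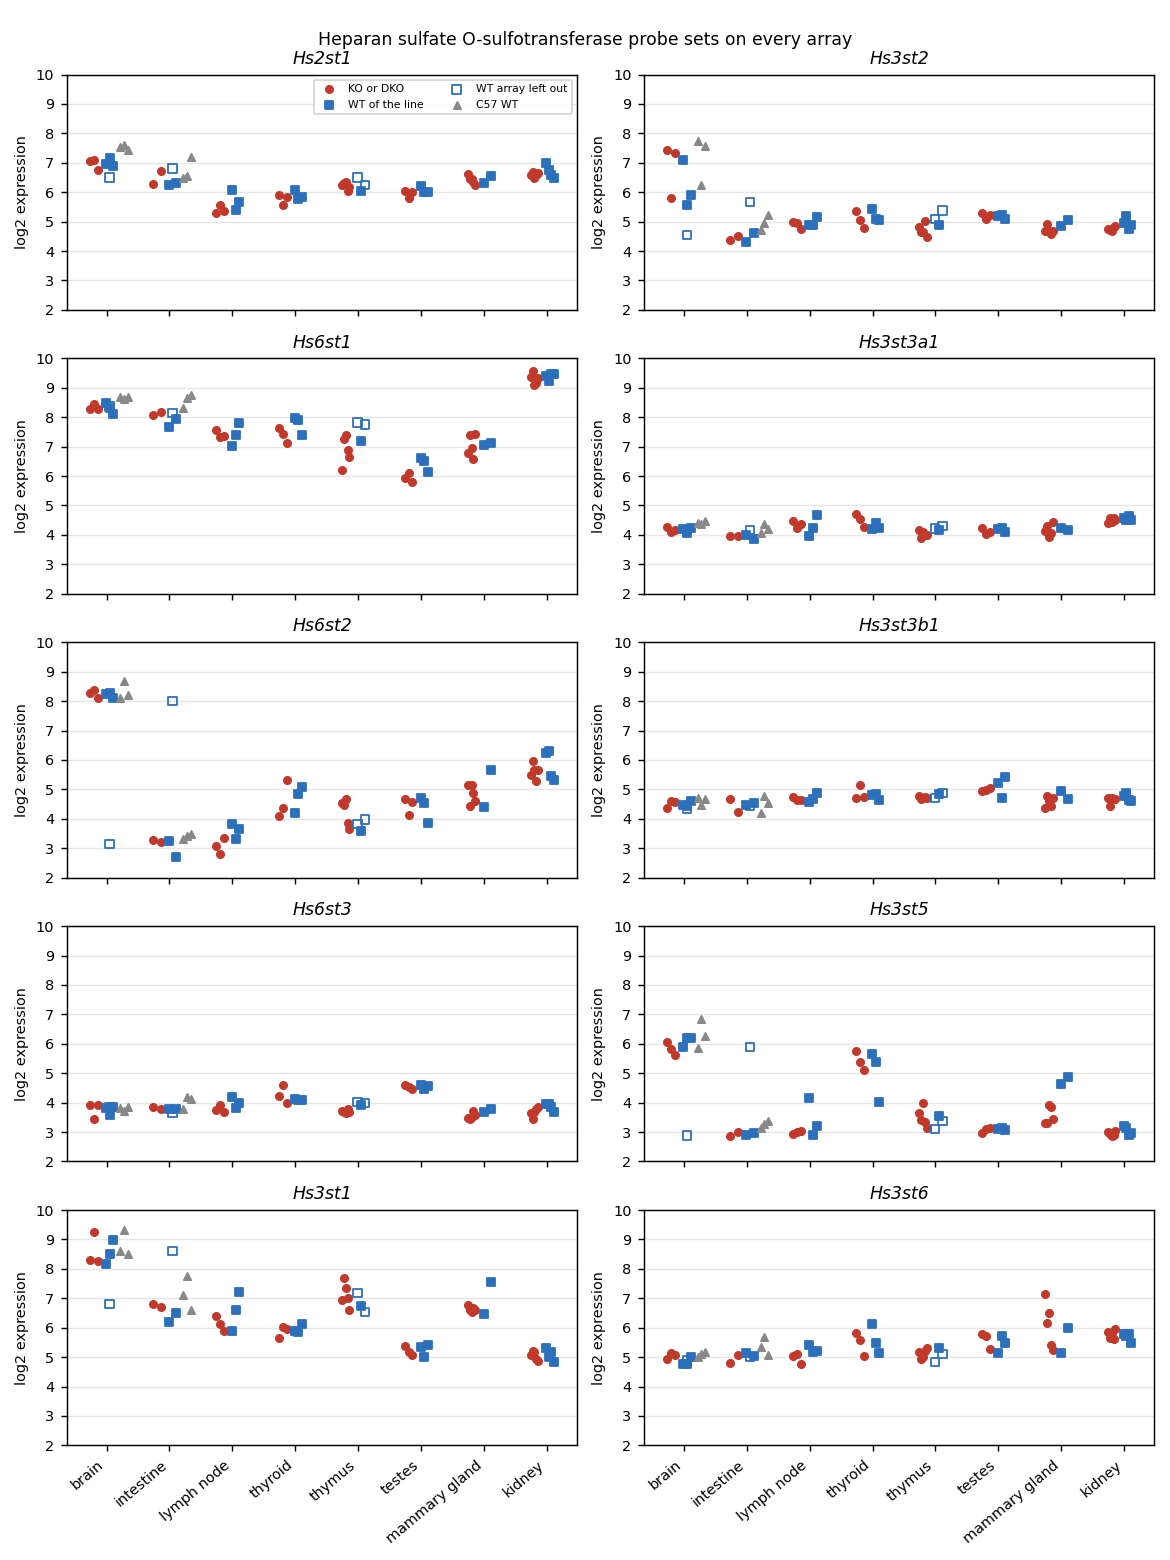
Log2 expression of the 10 probe sets (y axis) on every array, by tissue (x axis). Red circles are KO or DKO mice, blue squares WT mice of the same line, grey triangles C57 mice, and open squares the 4 WT arrays left out. Hs6st2 and Hs3st1 are highest in brain and Hs6st1 in kidney, while Hs3st3a1 and Hs3st3b1 stay within a narrow band.

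The promoters of 3 members illustrate how unlike their starts are: Hs6st2, the 6-O gene highest in brain, Hs3st5, a 3-O gene also highest there, and Hs6st1, the 6-O gene highest in kidney. The sequences are from RefSeq on GRCm38.p6 and are written 5′ to 3′ on the gene's strand. They run 250 bases before to 50 bases after 1 annotated start per gene. The annotated gene begins earlier, at 36506590 for Hs3st5 and 51681705 for Hs6st2. Part of the stretch before the start used thus lies inside these genes. They lie at chrX:51681553-51681852 on the minus strand for Hs6st2, at chr10:36506557-36506856 on the plus strand for Hs3st5 and at chr1:36068150-36068449 on the plus strand for Hs6st1. Capitals mark GGGCGG (the GC box) or TATAAA (the TATA box) on either strand, and the 2 motifs share no overlap.
Hs6st2: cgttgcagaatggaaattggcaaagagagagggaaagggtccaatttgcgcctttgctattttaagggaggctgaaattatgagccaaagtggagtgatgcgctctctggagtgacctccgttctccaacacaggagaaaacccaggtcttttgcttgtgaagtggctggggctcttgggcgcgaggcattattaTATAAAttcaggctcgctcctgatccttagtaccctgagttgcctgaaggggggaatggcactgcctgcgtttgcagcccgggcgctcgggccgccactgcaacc
Hs3st5: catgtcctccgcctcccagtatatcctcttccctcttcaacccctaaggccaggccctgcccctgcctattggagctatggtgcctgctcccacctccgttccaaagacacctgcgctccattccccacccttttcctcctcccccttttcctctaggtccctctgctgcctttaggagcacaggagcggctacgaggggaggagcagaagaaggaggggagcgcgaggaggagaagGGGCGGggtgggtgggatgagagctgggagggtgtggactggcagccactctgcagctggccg
Hs6st1: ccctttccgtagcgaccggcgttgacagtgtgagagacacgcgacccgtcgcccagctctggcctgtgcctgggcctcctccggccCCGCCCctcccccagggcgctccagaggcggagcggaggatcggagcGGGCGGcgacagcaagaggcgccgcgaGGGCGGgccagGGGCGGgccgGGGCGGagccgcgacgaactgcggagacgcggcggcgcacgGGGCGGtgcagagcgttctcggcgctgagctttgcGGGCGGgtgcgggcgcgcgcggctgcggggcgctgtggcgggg
The Hs6st1 window held 7 GC boxes, 47 CpG and 78.0% G and C. The Hs6st2 window held 1 TATA box and no GC box, with 12 CpG and 53.7% G and C, and the Hs3st5 window held 1 GC box, 9 CpG and 63.0% G and C. Of the 9 members with a promoter in the table, 6 held a GC box and 1 a TATA box, against 35.9% and 14.2% of 27025 promoters of the same length. These matches describe the letters in the windows and were not tied to any of the levels below.

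The 3 genes of 6-O-sulfotransferases had unlike tissue profiles. Hs6st2 was highest in brain, at 8.29, 8.38 and 8.09 in KO mice and 8.23, 8.29 and 8.10 in WT mice. It averaged 8.23 ± 0.11 (SD, n = 6) there, and the range did not overlap that of kidney, the next tissue, at 5.71 ± 0.38 (n = 9). Mammary gland, thyroid, testes and thymus followed at 4.90, 4.64, 4.41 and 4.13, and lymph node at 3.34 ± 0.37 (n = 6) and intestine at 3.10 ± 0.27 (n = 4) were lowest, with neighbouring tissues overlapping. Brain was higher than the mean of the other 7 tissues by 3.94 ± 0.16 (SE; limma, adjusted p = 4.29e-24). Kidney was higher by 1.07 ± 0.14 (adjusted p = 1.06e-08), a call lost with all arrays (0.99) and without N3738 or N3740 (0.97 and 0.99), whose difference is then under the required 1. Intestine was lower by 1.92 (log2 difference -1.92 ± 0.19, adjusted p = 2.11e-11) and lymph node by 1.65 (-1.65 ± 0.16, adjusted p = 1.02e-11). With all arrays as labelled the intestine difference was -1.04, since the array of 9099 that reads as brain is then in it. Thymus was lower at -1.0 ± 0.21 (adjusted p = 0.00015), which lies on the threshold. It fell short with all arrays (-0.95), under several other settings and when any 1 of 7 animals was left out, down to -0.70 without N9700, the 1 WT thymus animal kept. Of all genes, those most alike in level over the 8 tissues were Bmpr1b (Pearson r = 0.97) and Bdnf (0.949), given as a description over 8 tissue means that share arrays.

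Hs6st1 stayed at 5.81 or above on every array and had its peak in kidney. There the DKO mice read 9.36, 9.56, 9.11, 9.18 and 9.32 and the WT mice 9.40, 9.23, 9.48 and 9.48. Kidney averaged 9.35 ± 0.15 (n = 9), apart from brain at 8.32 ± 0.13 (n = 6), and was followed by intestine at 7.96, thyroid at 7.58, lymph node at 7.42, mammary gland at 7.04, thymus at 6.93 and testes at 6.19 ± 0.32 (n = 6), whose neighbours overlap. Kidney was higher than the other 7 tissues by 1.99 ± 0.10 (limma, adjusted p = 4.12e-21) and testes lower at -1.63 ± 0.12 (adjusted p = 4.21e-16). The brain difference of 0.81 ± 0.12 passed the p threshold (adjusted p = 6.29e-08) but not the required size of 1. Neu1 was most like it over the 8 tissues (r = 0.947).

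Hs6st3 was low in most tissues. On 48 of 56 arrays it lay below 4.21, with all testes arrays above that, and its tissue means ran from 3.60 in mammary gland to 4.53 ± 0.07 (n = 6) in testes. The testes difference of 0.69 ± 0.07 (limma, adjusted p = 9.49e-12) was the largest and under 1, so Hs6st3 was called in none of the 8 tissues.

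Hs2st1, the only 2-O-sulfotransferase, had a narrower spread. It averaged 6.99 ± 0.14 (n = 6) in brain, then 6.65 in kidney, 6.43 in mammary gland, 6.39 in intestine, 6.19 in thymus, 6.02 in testes, 5.84 in thyroid and 5.56 ± 0.29 (n = 6) in lymph node, and every neighbouring pair overlapped. Brain differed from the others by 0.84 ± 0.08 (limma, adjusted p = 7.77e-12) and lymph node by -0.79 ± 0.08 (adjusted p = 6.18e-11), both under 1. Against the other 3 tissues of its line alone the brain difference was 1.06, which passes.

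Among the 3-O-sulfotransferases, Hs3st1, Hs3st2 and Hs3st5 were higher in brain. Hs3st1 makes the antithrombin-binding site of heparan sulfate. Its brain levels were 8.31, 9.25 and 8.27 in KO mice and 8.17, 8.52 and 8.98 in WT mice, with a mean of 8.58 ± 0.44 (n = 6) apart from thymus, the next, at 7.05 ± 0.40 (n = 6). Mammary gland, intestine, lymph node and thyroid followed at 6.74, 6.54, 6.35 and 5.90, and testes at 5.23 ± 0.17 (n = 6) and kidney at 5.07 ± 0.17 (n = 9) lay below all thyroid animals. Hs3st1 was higher in brain by 2.46 ± 0.15 (limma, adjusted p = 5.2e-18) and lower in testes at -1.37 ± 0.15 (adjusted p = 2.17e-10) and in kidney at -1.56 ± 0.13 (adjusted p = 1.07e-13). Against the other 3 tissues of its own line it was also called in thyroid (-1.25), thymus (1.23) and mammary gland (1.07). Its probe set carries the suffix of probes shared with other transcripts, as do those of Hs3st2 and Hs3st3a1, so these readings can hold signal of other genes.

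Hs3st2, an enzyme known mainly from neurons, averaged 6.52 ± 0.85 (n = 6) in brain and no more than 5.18 ± 0.08 (testes, n = 6) elsewhere, down to 4.45 in intestine. Brain was higher by 1.63 ± 0.16 (limma, adjusted p = 4.61e-12), and its animals had the widest spread of the 8 tissues. That error and p use a spread shared by all groups and do not measure the spread within brain. The tissue profile was most like those of Ptprt (r = 0.994) and Il1rapl2 (0.992). Against the other 3 tissues of its line, intestine was called lower at -1.08.

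Within each group of brains, animals low in Hs3st2 read higher for Hs3st1 than those high in it, as the plot of the 9 brains shows. Across groups this did not hold throughout: WT 9099 had 5.58 with 8.52, and C57 GDWTF1 had 7.74 with 8.60. The pair is a description, picked out from among the members. KO animals 9093 and 9361 had 7.42 and 7.33 for Hs3st2 with 8.31 and 8.27 for Hs3st1, while KO animal 9100 had 5.79 with 9.25. WT animal 9094 had 7.10 with 8.17, while WT animals 9362 and 9099 had 5.90 with 8.98 and 5.58 with 8.52. C57 animals GDWTF1 and GDWTM3 had 7.74 and 7.58 with 8.60 and 8.49, and GDWTF2 had 6.24 with 9.32. Each group holds animals on both sides, so neither genotype nor line separates them. The animals fall into separate clusters, so no correlation is given, and which brain region was sampled is not given in the sources used here.

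**Figure D2:**
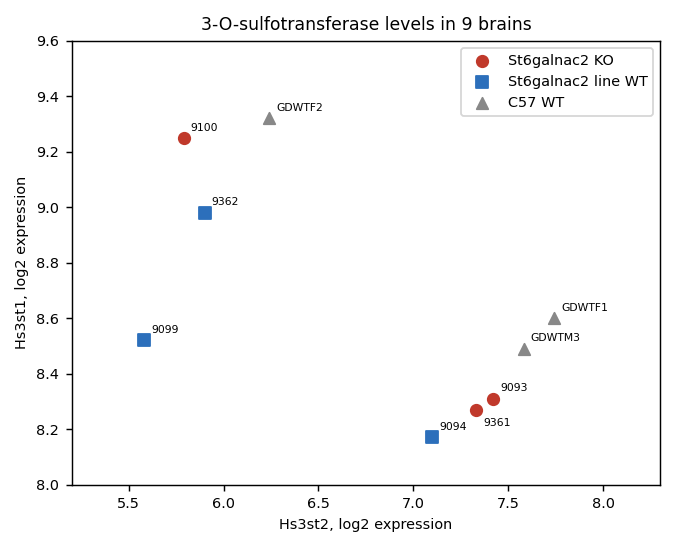
Hs3st1 (y axis) against Hs3st2 (x axis), both log2 expression, 1 point per brain of 9 mice: red circles KO, blue squares WT of the St6galnac2 line, grey triangles C57. The highest Hs3st1 readings, 9.32 in C57 animal GDWTF2 and 9.25 in KO animal 9100, stand with 6.24 and 5.79 for Hs3st2, and the highest Hs3st2 reading, 7.74 in C57 animal GDWTF1, with 8.60.

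Hs3st5, which in human cells makes sites for both antithrombin and a herpesvirus glycoprotein, was highest in brain and thyroid. Brain levels were 6.07, 5.83 and 5.63 in KO mice and 5.90, 6.20 and 6.21 in WT mice, a mean of 5.97 ± 0.23 (n = 6). Thyroid levels were 5.76, 5.37 and 5.10 in KO mice and 5.67, 5.38 and 4.02 in WT mice, a mean of 5.22 ± 0.63 (n = 6), in a range that overlaps brain. The KO animals stand here in the order of the Chga levels above, 9093, 9100 and 9361, and the WT animals as 9094, 9099 and 9362, and the lowest Hs3st5, 4.02, came from WT 9362 with Chga at 12.73. The part of C cells in these levels was not tested. Mammary gland averaged 3.91 ± 0.63 (n = 7) and the other 5 tissues lay between 2.93 and 3.51, below the low mark. Hs3st5 was higher in brain by 2.38 ± 0.14 (limma, adjusted p = 1.65e-18) and in thyroid by 1.52 ± 0.14 (adjusted p = 1.04e-11), and lower in intestine at -1.09 ± 0.17 (adjusted p = 5.81e-07) and kidney at -1.02 ± 0.12 (adjusted p = 1.57e-09). The intestine call is lost with all arrays (-0.54, adjusted p = 0.0529), where the array of 9099 reads 5.89, and with arrays centred (-0.91) or quantile normalised once more (-0.99). The kidney call is lost against the other 3 tissues of its line (-0.60), when centred (-0.96) or quantile normalised (-0.99), and without 9094 (-0.98), N5893 (-1.0) or N9686 (-0.99). Lymph node was called lower within its line (-1.50). All these fits share a spread over groups, so their errors and p do not measure the spread within thyroid.

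The last 3 genes had the flattest 3-O profiles. Hs3st6 averaged 5.94 ± 0.73 (n = 7) in mammary gland and 4.95 ± 0.15 (n = 6) in brain, with every neighbouring pair overlapping. Hs3st3a1, below 4.21 on 26 of 56 arrays, ran from 3.93 in intestine to 4.53 in kidney. Hs3st3b1 ran from 4.48 in intestine to 5.05 in testes. None of the 3 was called in a tissue. Hs3st3a1 and Hs3st3b1, whose human counterparts make the entry site for herpes simplex virus glycoprotein D, encode near-identical sulfotransferase domains. The Hs3st3a1 probe set has the suffix of shared probes and that of Hs3st3b1 does not, and what each reads of the other gene was not tested.

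In brain 4 of 10 members were called higher and 0 lower, where 14.6% of all probe sets were called higher and 14.4% lower. In kidney 2 were higher and 2 lower (9.31% and 7.95% of all), in testes 0 and 2 (8.11% and 16.2%), in intestine 0 and 2 (11.2% and 13.5%), in lymph node 0 and 1 (10.8% and 7.22%), in thyroid 1 and 0 (5.94% and 5.54%), in thymus 0 and 1 (7.38% and 4.74%) and in mammary gland 0 and 0 (9.15% and 2.73%), with 6 members at unadjusted p under 0.05 in mammary gland. Over the 8 tissues the members' range from lowest to highest mean had a median of 1.75, against 1.97 over 909 genes. It ran from 0.57 for Hs3st3b1 to 5.13 for Hs6st2.

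The other genes of the pathway were read from 34 measured of 38 listed. In brain 9 were called higher and 5 lower (14.6% and 14.4% of all probe sets). Of 12 core proteins, 4 were higher there and 3 lower. Core protein Gpc5 was higher by 3.60 ± 0.10, the N-sulfotransferase Ndst3 by 2.63 ± 0.18, and the Ext-like gene Extl2 by 2.44 ± 0.19. The heparanase Hpse was lower at -1.84 ± 0.23 and Papss2, which makes the sulfate donor, at -1.51 ± 0.29 (SE, limma, all of these called). In kidney 7 were higher and 2 lower (9.31% and 7.95% of all). Papss2 at 3.43 ± 0.25 and the core protein Gpc4 at 2.90 ± 0.14 were higher, and the 6-O-endosulfatase Sulf1 was lower at -2.13 ± 0.14. In testes 2 were higher and 9 lower (8.11% and 16.2% of all), with the N-sulfotransferase Ndst4 higher at 4.04 ± 0.07 and Papss2 lower at -2.89 ± 0.29. Intestine had 3 and 6 (11.2% and 13.5% of all) and lymph node 1 and 6 (10.8% and 7.22%). Thyroid had 4 and 0 (5.94% and 5.54%), thymus 5 and 0 (7.38% and 4.74%), and mammary gland 3 and 0 (9.15% and 2.73%).

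Between mice labelled KO and WT of the St6galnac2 line no member was called in any tissue by limma (adjusted p under 0.05, sex as a covariate). Chga did not bear out the thyroid label of KO animals 9100 and 9361, as given above. In thyroid 0 of 10 were called, where 0% of all probe sets were, in lymph node 0 (0%), in brain 0 (0.0803%) and in intestine 0 (0.0803%). At unadjusted p under 0.05 no member passed in these 4 tissues, against 47, 43, 26 and 73 of 1246 probe sets. For the mean over the 4 tissues 0 members were called (0.0803%), and their differences ran from -0.09 to 0.11. A test of whether the KO effect differs between the 4 tissues, added after the data were seen, called 0 members and 0% of probe sets, with 55 at unadjusted p under 0.05.

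Most single differences were small, as the plot of differences by tissue shows. The standard errors of the 80 differences between genotypes ran from 0.07 to 0.46 with a median of 0.17, and 76 of the 80 differences were under 0.5 in size before any test. Brain Hs3st2 averaged 6.85 in KO and 6.19 in WT (difference 0.66 ± 0.42, adjusted p = 0.898), with the animals' values as given above. In lymph node Hs6st2 was 3.06, 2.81 and 3.36 in KO mice and 3.81, 3.32 and 3.66 in WT mice (-0.52 ± 0.22, adjusted p = 0.802), and the groups overlap. The WT lymph nodes of 9094 and 9362, which stood apart in the markers above, gave the 3.81 and 3.66, and their part in the difference was not tested. In DKO mammary gland Hs3st6 was 7.14, 6.15, 6.50, 5.40 and 5.24, against 5.14 and 6.0 in WT mice (0.60 ± 0.41, adjusted p = 0.625), and the groups overlap. In intestine Hs3st1 was 6.81 and 6.69 in KO mice and 6.18 and 6.49 in WT mice, and Hs6st1 8.08 and 8.17 in KO mice and 7.66 and 7.93 in WT mice. Both KO animals read above both WT animals for each gene, with differences of 0.42 ± 0.17 and 0.33 ± 0.14 (limma, both adjusted p = 0.853). Neither was called, with 2 animals a side and 1 residual degree of freedom. Of the 80 differences, 11 had groups that did not overlap, thymus with its 1 WT animal included.

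**Figure D3:**
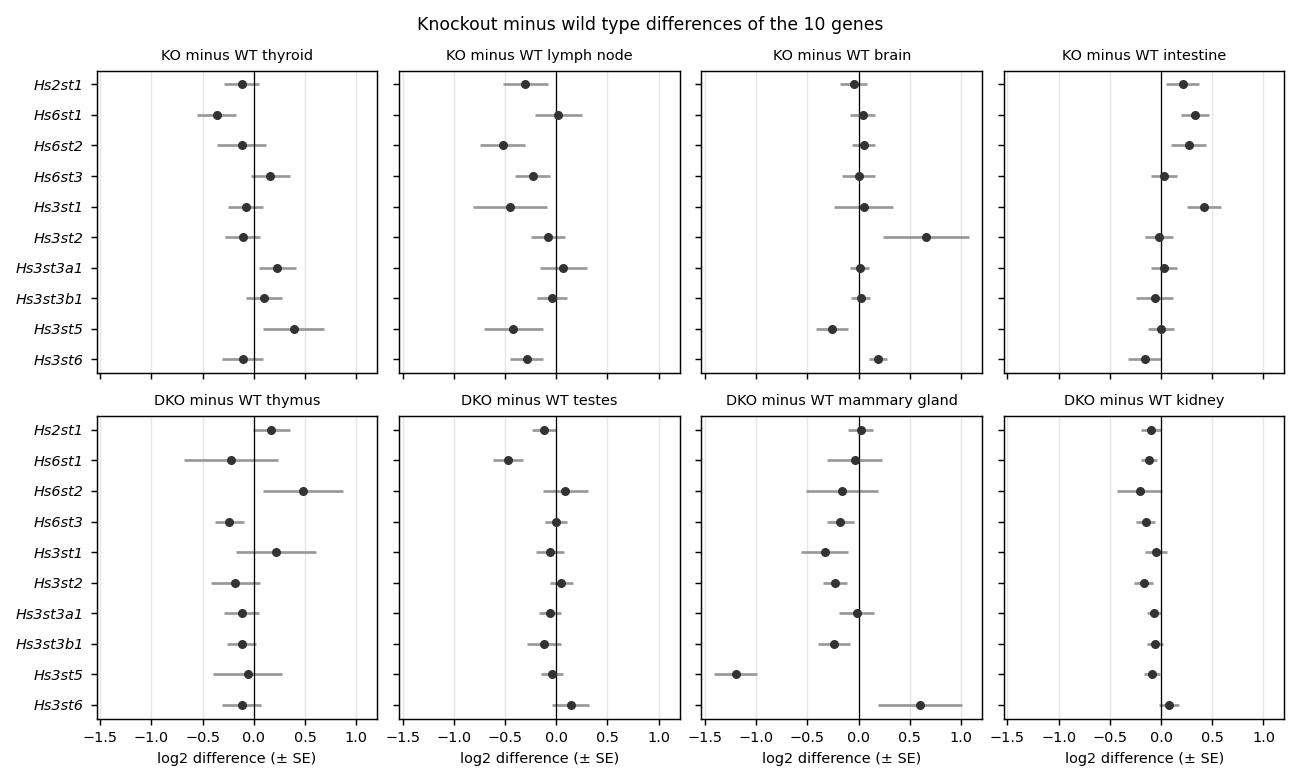
KO minus WT (upper row) and DKO minus WT (lower row) log2 differences of the 10 genes (x axis, point with SE bar), 1 panel per tissue. Most points lie within 0.5 of 0, and Hs3st5 in mammary gland, at -1.20, lies farthest from it.

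Between mice labelled DKO and WT of the B4galnt1/B4galnt2 line no member was called in any tissue either. The counts were 0 of 10 in thymus (0% of all probe sets), 0 in testes (0.241%), 0 in mammary gland (0%) and 0 in kidney (0.0803%). At unadjusted p under 0.05 there were 0, 1, 1 and 0 members, against 35, 152, 138 and 164 of all probe sets. For the mean over the 4 tissues 0 members were called (0.803%), and 2 passed at unadjusted p under 0.05: Hs3st5 at -0.35 ± 0.09 (limma, adjusted p = 0.0769) and Hs6st3 at -0.14 ± 0.05 (adjusted p = 0.189). The Hs3st5 mean passes with all arrays (-0.30, adjusted p = 0.0397), without N5893 (-0.41, 0.0248) and without N9700 (-0.46, 0.00377). Within the pathway list Hpse was lower by limma in DKO testes (-0.85 ± 0.14, adjusted p = 0.0465) and in the DKO mean (-0.57 ± 0.12, adjusted p = 0.0305). These were the only calls of the 34 genes in these comparisons. The testes fit called 0 probe sets when any 1 of N3738, N3740, N5893, N5894 and N5895 was left out, so the Hpse call is lost there. The DKO mean called 0 without N3740. Its fit shares a spread over tissues, so its errors and p do not measure the spread within any 1 tissue.

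Hs3st5 in mammary gland had the largest difference of the 80. It was 3.32, 3.32, 3.92, 3.86 and 3.43 in DKO mice, against 4.64 in a WT male (N3738) and 4.86 in a WT female (N9686). All 5 DKO values lay below both WT values, and the DKO values lie below the low mark. The difference was -1.20 ± 0.21 (limma, unadjusted p = 0.000923, adjusted p = 0.166), which was not called in the mammary fit. With all groups of the line in 1 limma fit it was -1.20 with an adjusted p of 0.000383, and 66 of 1246 probe sets were called in place of 0. That fit shares 1 spread over tissues, so its p does not measure the spread within mammary gland. The same holds for the test between tissues given below. In thymus, testes and kidney the Hs3st5 differences were -0.06 ± 0.34, -0.04 ± 0.11 and -0.09 ± 0.08. All Hs3st5 values in those tissues, WT included, lay below the low mark, which limits the falls they can show. A test of whether the DKO effect differs between the 4 tissues, added after the data were seen, called Hs3st5 (adjusted p = 0.0471) and 0.482% of probe sets (6 of 1246), and the call is lost without any of N3738, N3740, N5891, N5892, N5894, N5895 and N9686, and under 3 other settings. Of the marker lists, 3 separated the same groups: B cell and lymph node genes averaged 4.60 to 5.11 in DKO mammary glands and 5.61 (N3738) and 5.37 (N9686) in WT ones, kidney genes 4.30 to 4.42 in DKO and 5.71 and 4.50 in WT, and brain genes 4.46 to 4.62 in DKO and 4.65 and 4.82 in WT. The testes gene, Galntl5, was 3.20 to 3.48 in DKO and 5.48 and 3.42 in WT. The 5 connective tissue genes overlapped, at 8.5 to 10.02 in DKO and 9.46 and 9.79 in WT. The salivary gland gene Prol1 was 2.54 to 2.61 in DKO animals N5891, N5893 and N5894 but 9.79 and 12.47 in N5892 and N5895, against 9.74 in both WT animals. Their part in the Hs3st5 difference was not tested. The WT lymph node array of 9094, the least typical array kept, read 4.16 for Hs3st5, against 2.89 to 3.19 on the other lymph node arrays.

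**Figure D4:**
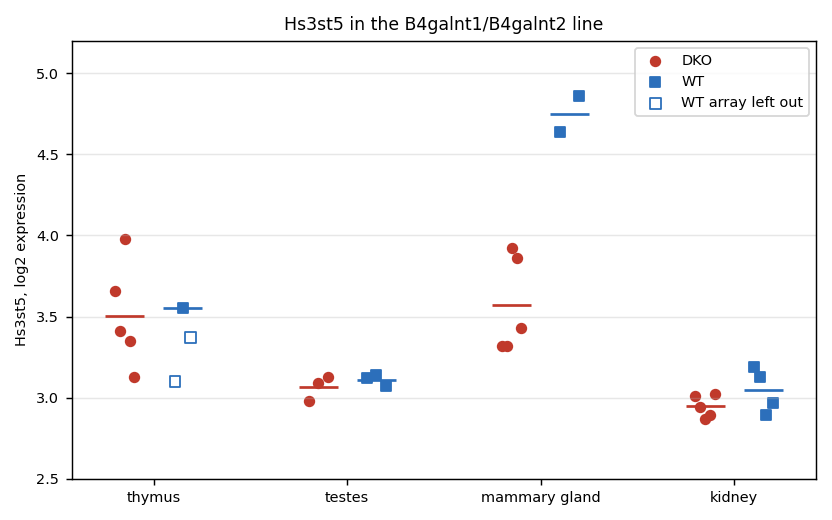
Hs3st5 log2 expression (y axis) in the 4 tissues of the B4galnt1/B4galnt2 line (x axis), DKO as red circles left of WT as blue squares, with group means as lines and WT arrays left out as open squares. The 5 DKO mammary glands read 3.32 to 3.92 and the 2 WT ones 4.64 and 4.86, while the groups overlap in the other 3 tissues.

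Hs6st1 in testes was 5.94, 6.12 and 5.81 in DKO mice and 6.62, 6.52 and 6.13 in WT mice. All 3 DKO values lay below all 3 WT values, the nearest pair 6.12 and 6.13, with a difference of -0.47 ± 0.15 (limma, adjusted p = 0.286). Without WT animal N9700, which gave 6.13, the difference was -0.61 with an adjusted p of 0.00932, and the fit then called 213 of 1246 probe sets in place of 3, so the call rests on leaving out that animal. In kidney WT animals N3738 and N3740 read 6.23 and 6.32 for Hs6st2, above the 2 other WT animals (5.46 and 5.31) and all 5 DKO animals (5.29 to 5.96), with a genotype difference of -0.21 ± 0.22 (adjusted p = 0.669).

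Between WT mice of the St6galnac2 line and C57 mice no member was called in brain (0 of 10, 1.61% of all probe sets) or in intestine (0, 0%), with 4 and 1 members at unadjusted p under 0.05 against 340 and 267 probe sets. The largest brain difference that also separated the animals was Hs2st1, at 6.97, 7.17 and 6.89 in WT mice of the line and 7.53, 7.62 and 7.42 in C57 mice (-0.51 ± 0.10, limma, adjusted p = 0.0807). The line is labelled intestine and C57 small intestine, so region and line cannot be told apart in that comparison. In intestine the largest difference was Hs3st1, at 6.18 and 6.49 in WT mice of the line and 7.11, 7.75 and 6.60 in C57 mice, which do not overlap (-0.81 ± 0.36, limma, adjusted p = 0.265). Hs6st1 there was 7.66 and 7.93 in WT mice of the line and 8.31, 8.65 and 8.74 in C57 mice (-0.77 ± 0.20, adjusted p = 0.134). All 10 differences were at or below 0 in both tissues, with medians of -0.24 in brain and -0.38 in intestine, but the median of all probe sets was itself -0.15 and -0.25. With the array medians subtracted, 8 were negative and 1 positive in brain (median -0.13), and 6 negative and 4 positive in intestine (median -0.07).

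The sex difference was tested in kidney and in mammary gland, and in no other tissue. In kidney 0 of 10 members were called, against 7.3% of all probe sets, and 1 was at unadjusted p under 0.05: Hs6st1 averaged 9.47 in females and 9.29 in males (0.20 ± 0.09, limma, adjusted p = 0.221). In mammary gland 0 were called (0.241%) and 0 passed at unadjusted p under 0.05. Its largest difference was Hs3st6, at 7.14, 6.15 and 6.0 in females and 6.50, 5.40, 5.24 and 5.14 in males (0.91 ± 0.38, adjusted p = 0.47), and these overlap. Of the pathway list, female kidney was higher in Papss2 (0.48 ± 0.12, adjusted p = 0.0288) and lower in the core protein Sdc2 (-0.85 ± 0.09, adjusted p = 0.000259).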

How the data were processed

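Expression values are log2 values that the authors made with RMA, per the submitters' processing notes, and deposited as 1 table for 60 arrays. The version, and whether all arrays were normalised together, are not given in the sources used here. They were used as deposited, with array medians of 5.3 to 5.76. The number of arrays limits the precision.

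Groups come from the labels, and the replicate is the animal. Differences were fitted with limma 3.58.1 in R 4.3.3 over all 1246 probe sets, with Benjamini-Hochberg adjustment over all of them within each comparison and a call at an adjusted p under 0.05, and for tissues only where the log2 difference also reached 1. Sex was a covariate in genotype fits except in testes. A tissue is the unweighted mean of its knockout and WT group means. Tissue differences, genotype means over tissues and tests between tissues came from fits that share a spread over tissues. Their errors and p therefore do not measure the spread within any 1 tissue. Errors of differences are standard errors. Nothing says whether samples of a group were handled separately. The same animals gave several tissues, a real pairing. With the animal as a random block, the correlation of arrays of the same animal was -0.021 over the St6galnac2 line, 0.0475 over the B4galnt1/B4galnt2 line and 0.015 over all tissues.

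The members, lists and settings were chosen with earlier results of these data known. The members are named in every comparison, with values for those called or with the largest differences, and of the pathway the called genes with the largest differences. The 4 arrays that did not match their labelled tissue were marked in earlier work on these data and left out after their values were seen. The procedure was tested on simulated data with independent noise and the same spread in every tissue. That test does not cover the pairing of animals or unequal spreads between tissues. Figures and tables were made with Python 3.11.15.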

Additional observations from a re-analysis of the deposited data

Results flagged for a closer look

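The DKO effect on Hs3st5 was called as differing between the 4 tissues of the B4galnt1/B4galnt2 line (limma's moderated F test, adjusted p = 0.0471). It was -1.20 in mammary gland and -0.06, -0.04 and -0.09 in thymus, testes and kidney. The call is lost when most single animals are left out and under the other settings named above. Hs3st5 was below the low mark in testes (2.98 to 3.14), kidney (2.87 to 3.19) and thymus (3.13 to 3.98), which limits the falls it can show there. WT mammary gland holds 2 animals and WT thymus 1. The test shares a spread over tissues, so its p does not measure the spread within mammary gland.

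Hs3st3b1 in the kidney of DKO animal N5892 read 4.44, against 4.67 to 4.70 in the other 4 DKO kidneys, a gap large for the range of the group. Of 40 gene and group pairs examined this was the 1 that stood out, where chance gives 1 in 20.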

How the results depend on the processing

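Over all alternatives 4026 differences were recomputed: 3991 kept their side of the threshold, 23 lost a call, 12 gained one, 0 called values changed sign and 184 uncalled values did. The counts of members called moved as follows. With all arrays as labelled, the DKO mean had 1, intestine 1, thymus 0 and kidney 3 in place of 4. With arrays centred on their medians or quantile normalised once more, intestine had 1 and kidney 3, and under quantile normalisation thymus had 0. Leaving out dim probe sets removes Hs3st5 and Hs6st3 themselves, so brain (3), kidney (3), intestine (1), thyroid (0) and the DKO effect between tissues (0) each lack the Hs3st5 call untested. Against the other 3 tissues of the line, brain had 5, intestine and kidney 3 each, lymph node, thyroid and thymus 2 each and mammary gland 1. In WT groups alone testes had 3 in place of 2. With sex as a covariate and C57 left out, 2 choices changed together, thymus had 0. With the animal as a replicate block, which uses the real pairing of tissues, thymus had 0, at -1.0 just under the required size, the DKO mean called 4 of all probe sets in place of 10, and the block changed no other call of a member. With all groups of the line in 1 fit, mammary gland had 1.

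The test of the DKO effect between tissues lost Hs3st5 when arrays were centred (adjusted p = 0.0738), quantile normalised (0.0904) or fitted without sex (0.0687), each leaving 0. Leaving out 1 animal gave 0 to 1 members in that test, with Hs3st5 losing its call without N9686 at an adjusted p of 0.428. Elsewhere it gave 0 to 1 members in DKO against WT testes and in the DKO mean. Among the tissue comparisons it gave 0 to 1 in thymus and 3 to 4 in kidney. The causes were not tested. Without 1 of its 4 animals the intestine genotype comparison left no residual degrees of freedom, and without N9700 no WT thymus was left. No member has several probe sets, so the alternative of using each other probe set gave no value.

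Counts over all 1246 probe sets moved more. With all arrays as labelled, KO brain and KO intestine had 0 in place of 1 each, the DKO mean 81 in place of 10, WT against C57 brain 0 in place of 20, thymus 90 in place of 151, and the DKO effect between tissues 10 in place of 6. Centring gave 1 for the DKO mean and 3 for WT against C57 intestine (0 otherwise), and quantile normalisation 6, 5, 11 for C57 brain and 1 for DKO mammary gland (0 otherwise). With named probe sets only, KO brain, KO intestine, the KO mean and C57 brain had 0 and C57 intestine 1. Without dim probe sets C57 brain had 11 and C57 intestine 1. An intensity trend gave 6 for the DKO mean and 13 for C57 intestine, and no sex covariate 6 for the DKO mean and 2 for the DKO effect between tissues. In 1 fit per line, KO thyroid and lymph node had 1 each, KO intestine 6, DKO mammary gland 66 and DKO kidney 0 in place of 1. Against its line thyroid had 228 in place of 143. Leaving out 1 animal gave 0 to 2 in KO thyroid, 0 to 1 in KO brain, 1 to 10 for the KO mean, 0 to 213 in DKO testes (3 otherwise), 0 to 3 in DKO mammary gland, 0 to 2 in DKO kidney, 0 to 191 for the DKO mean, 1 to 110 in C57 brain, 0 to 2 in C57 intestine, 45 to 107 for sex in kidney (91 otherwise), 0 to 18 for sex in mammary gland (3 otherwise), 0 to 8 for the KO effect between tissues and 0 to 12 for the DKO effect. Hs6st3 and Hs3st5 lay below the lower quartile of all values on 48 and 40 of 56 arrays, and Hs3st3a1 on 26, which limits the falls that these probe sets can show.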
